A study of Mus musculus with 8 samples.

Results

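Glycosaminoglycan synthesis and sulfation genes are a set of 42 mouse genes, chosen by name for what their products do: they start, build, epimerise and sulfate the chondroitin, dermatan and heparan sulfate chains of proteoglycans, remove sulfate from finished heparan sulfate, or supply sulfate and sugar for the chains. The choice was made with earlier results of these data known. All 42 were found by symbol among the 50462 gene identifiers of the count table. Their expression was compared in RNA-Seq libraries of medial knee cartilage from wild-type control male C57BL/6J mice, with 1 library per mouse. The naive group held 4 mice without surgery, taken at day 0 at 11 weeks of age. The DMM group held 4 mice whose left medial meniscus was destabilised by cutting the ligament that anchors it to the tibia, taken at day 42 at 17 weeks of age. The groups therefore differ in surgery and in age by 6 weeks, and with no sham-operated mice analysed here these cannot be told apart.

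Glycosaminoglycans are long chains of repeating sugar pairs that are built on a serine of a core protein in the Golgi. A short linker of xylose, galactose and glucuronic acid comes first, and the next sugar added decides whether the chain becomes chondroitin sulfate or heparan sulfate. In cartilage the sulfated chondroitin chains of aggrecan hold water and let the tissue resist compression, whereas heparan sulfate chains bind growth factors, and the pattern of sulfate groups sets which proteins a chain binds.

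Total estimated counts were between 12627770 and 16230518 in naive and between 12479443 and 16548002 in DMM libraries. Values below are normalised counts, which are the deposited estimated counts divided by DESeq2 size factors, and a gene was called when its Benjamini-Hochberg adjusted p from the DESeq2 Wald test was at most 0.05 and its change at least 1.5-fold. The chondrocyte markers Col2a1, Acan and Sox9 were present in every library, with Sox9 between 805 and 2182 normalised counts, as were markers of marrow and bone cells. The summed level of 10 neutrophil markers was lower in every DMM library (56534 to 116562) than in every naive library (128655 to 193338), with 9 of 10 called lower. The summed levels of 7 osteoblast and osteocyte markers (18235 to 23640 in naive, 35575 to 65008 in DMM, 7 of 7 called higher) and of 6 synovial fibroblast markers (117094 to 213340 in naive, 314211 to 466711 in DMM, 5 of 6 called higher) were above the naive range in every DMM library. Most of the fibroblast sum was Col1a1 (108513 to 384195), which bone cells also make, and Pi16 of that list passed in the lower direction (log2 fold change -0.35, DESeq2 adjusted p = 0.00966). Chondrocyte markers overlapped between the groups (75039 to 140201 in naive, 124506 to 183153 in DMM, 5 of 10 called higher). Endothelial markers were also above the naive range (2943 to 3559 in naive, 3782 to 4214 in DMM, 2 of 4 called higher), erythroid markers were lower with overlap (7 of 8 called), 1 of 5 osteoclast markers was called higher, and 0 of the B cell and macrophage markers were called. Of 5 muscle markers 4 received no adjusted p. The sum of all 5 stood apart in DMM replicate 1 (1183 normalised counts, against 34.3 to 117 for the remaining DMM mice). It was also high in naive replicate 3 (440, against 33.3 to 96.4 for the remaining naive mice). No marker of these lists was at 0 in all libraries. The part of these shifts in the results that follow was not tested, and in whole tissue a change in the number of cells of a type and a change in RNA per cell cannot be told apart.

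Of the 42 genes, 40 could be tested, and 8 of these rose in DMM cartilage: the chondroitin chain genes Chpf and Chsy3, the uronyl sulfotransferase Ust, the dermatan epimerase Dsel, the heparan sulfate genes Extl1 and Hs3st1, and the extracellular sulfatases Sulf1 and Sulf2. That is 20% of the tested members, where 7.75% of all 17760 tested genes were called higher. No member was called lower, against 5.92% of all tested genes. By DESeq2 at an unadjusted p under 0.05, 1 member was lower and 24 were higher, where 17% and 15.9% of all tested genes were. The quasi-likelihood test of edgeR also called 0 members lower, but its share over all genes was not taken, so this 0 has no background. With the adjusted p alone and any size of change, 18 members were higher and 1 was lower, where 11.4% and 11.2% of all tested genes were. In 19 members every DMM library was above every naive library, a pattern seen in 11.9% of tested genes, and in 0 members was every DMM library below every naive library, a pattern seen in 10.3%. The median log2 fold change (DMM over naive) was 0.34 over the tested members and -0.02 over all tested genes, with members between -0.42 and 1.21. The remaining 2 members, Ndst3 and Hs6st2, were too low to receive an adjusted p.

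**Figure D1:**
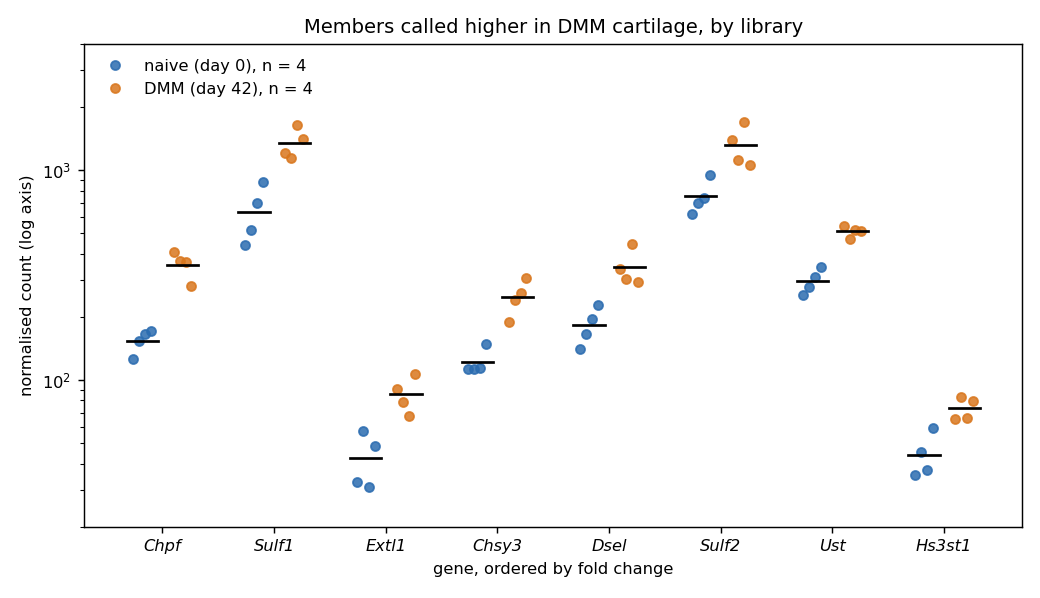
Normalised count (log axis) of the 8 called members in each of the 4 naive (blue) and 4 DMM (orange) libraries, ordered by fold change, with 1 point per library and a black bar at the group mean. In each gene the 4 DMM libraries lie above the 4 naive libraries, and Hs3st1 has the narrowest gap, from 59.0 to 65.5.

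Between genes, levels were compared as normalised counts per kilobase of the longest coding transcript. In naive cartilage Csgalnact2, which adds the first N-acetylgalactosamine and so commits a chain to chondroitin, had the highest level of the set (384 ± 26.0 normalised counts per kilobase, SD, n = 4), and its lowest naive library was above the highest naive library of the next gene. Chst12 (288 ± 43.9), Ugdh (283 ± 34.1), Hs6st1 (222 ± 47.0) and Chst15 (219 ± 13.0) followed with overlapping ranges. At the other end stood Chst7 (11.1 ± 1.40), Extl1 (10.3 ± 3.08), Ndst3 (1.97 ± 0.904) and Hs6st2 (0.582 ± 0.301). Along the naive order most neighbours overlapped in their 4 libraries. The exceptions were the steps below Csgalnact2, Extl3, Hs3st3a1, Extl1 and Ndst3.

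In DMM cartilage Csgalnact2 (344 ± 57.8 normalised counts per kilobase, SD, n = 4) and Ugdh (339 ± 56.2) headed the order. The sulfatases moved up most among the abundant members: Sulf2 was at rank 12 in naive and rank 3 in DMM (164 ± 30.7 and 288 ± 63.6), and Sulf1 at rank 17 and rank 6 (113 ± 35.0 and 242 ± 40.1). Hs6st1 was at rank 4 in naive and rank 16 in DMM (222 ± 47.0 and 166 ± 11.1). Chpf was at rank 27 in naive and rank 20 in DMM (50.3 ± 6.62 and 116 ± 17.7). These ranks are given as a description without a test.

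**Figure D2:**
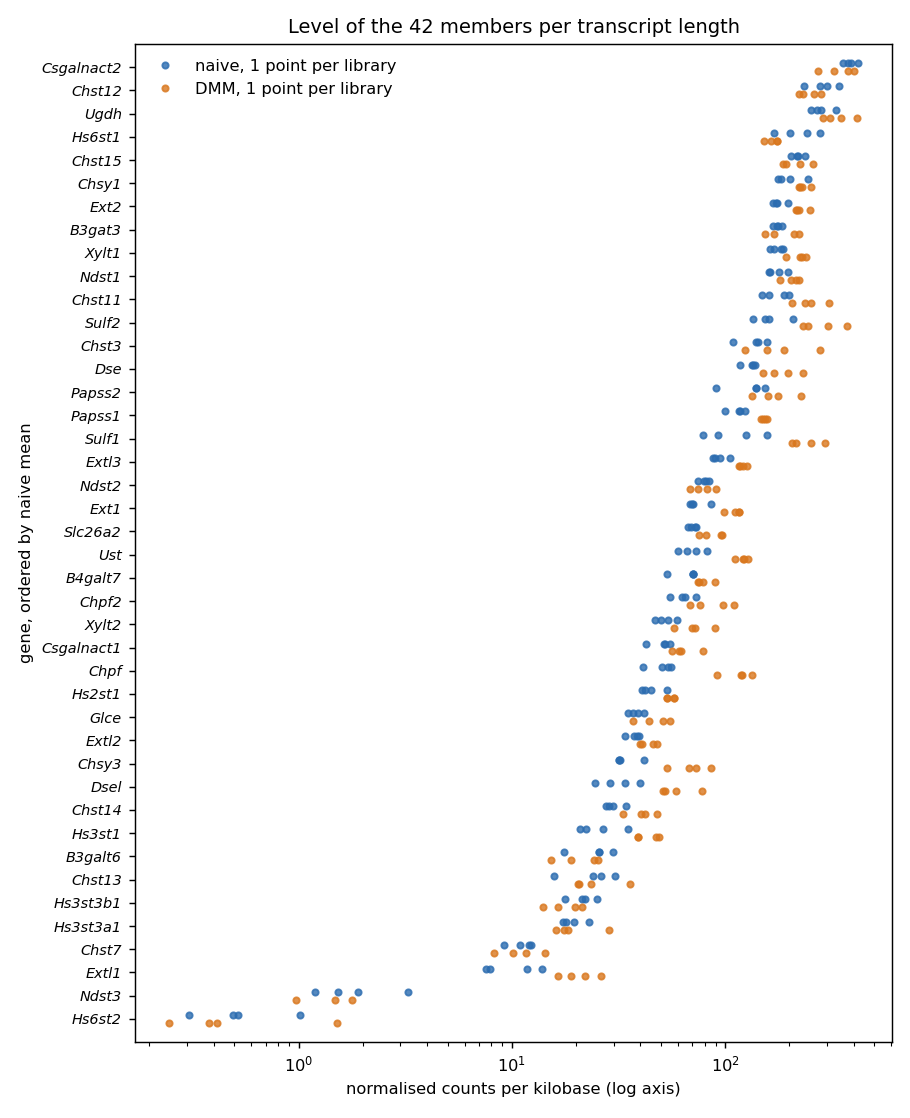
Normalised counts per kilobase (log axis) of the 42 members, ordered by their naive mean, with 1 point per naive (blue) or DMM (orange) library. Levels run from 384 for the naive mean of Csgalnact2 to about 1 or below for Ndst3 and Hs6st2, and Ndst3 in DMM replicate 2, at 0, is not drawn.

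The linker genes act first. Xylt1 and Xylt2, the xylosyltransferases that attach xylose to the core protein, were higher in DMM with changes under 1.5-fold. Xylt1 was at 1575 ± 104 normalised counts in naive libraries and 1989 ± 177 in DMM (SD, n = 4, log2 fold change 0.34, DESeq2 adjusted p = 0.00915), with no overlap of the groups. Xylt2 was at 181 ± 18.3 and 249 ± 45.4 (log2 fold change 0.46, DESeq2 adjusted p = 0.0339), with overlap. The galactosyltransferase gene B4galt7 had a log2 fold change of 0.28 (95% interval -0.04 to 0.59), B3galt6, the next galactosyltransferase, -0.24 (-0.73 to 0.26), and B3gat3, which adds the glucuronic acid that ends the linker, 0.10 (-0.19 to 0.40), and none of these passed the test. Of the 5 linker genes, 0 were called, where 7.75% of all tested genes were called higher and 5.92% lower.

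Chondroitin chains are lengthened by complexes of the synthases Chsy1 and Chsy3 with the polymerising factors Chpf and Chpf2. Chpf (ENSMUSG00000032997, GRCm38 chr1:75474569-75479307, minus strand) had the largest change of the whole set. It was at 126, 154, 166 and 171 normalised counts in naive replicates 1 to 4 and at 409, 369, 364 and 280 in DMM replicates 1 to 4. Even DMM replicate 4, the lowest of its group, was well above the highest naive library, and the means were 154 ± 20.3 and 355 ± 54.2 (SD, n = 4). The change was 2.31-fold (log2 fold change 1.21, SE 0.17, DESeq2 adjusted p = 2.89e-10). Chpf was also the 1 member still called when DESeq2 tested against a null of 1.5-fold, with an adjusted p barely under the threshold of 0.05. For this null the share over all genes was not taken, so the call has no background.

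Chsy3 (ENSMUSG00000058152, GRCm38 chr18:59175401-59535999, plus strand) was at 113.4, 113.1, 114.5 and 149 normalised counts in the naive libraries and at 190, 241, 261 and 305 in the DMM libraries. Naive replicate 4 stood above 3 closely grouped naive libraries but below all DMM libraries. The change was 2.04-fold (log2 fold change 1.03, SE 0.19, DESeq2 adjusted p = 3.32e-06). Its paralogue Chsy1 was more abundant per kilobase (201 ± 30.9 against 34.3 ± 4.88 in naive, SD, n = 4) and had a log2 fold change of 0.21 (95% interval -0.04 to 0.46, adjusted p = 0.253 by DESeq2). The difference between the fold changes of Chsy3 and Chsy1 was not tested.

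Chpf2 had a log2 fold change of 0.46 with overlapping groups (DESeq2 adjusted p = 0.0381), and 41.9% of its 31-base words occur in other genes, and 44.1% of its exon bases overlap other genes, chiefly the antisense gene Smarcd3. The sources used here do not say whether strand was used in counting, so its value is uncertain. Csgalnact1, the other initiating enzyme, was at 199 ± 21.2 normalised counts in naive libraries and 254 ± 38.4 in DMM (SD, n = 4, log2 fold change 0.36, DESeq2 adjusted p = 0.0915). Its groups did not overlap, but it did not pass the test. The abundant Csgalnact2 had a log2 fold change of -0.16 (95% interval -0.43 to 0.11). Of the 6 chondroitin chain genes, 2 were called higher, 1 passed the adjusted p only and 3 did not pass. Of all tested genes, 7.75% were called higher.

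The promoter of Chpf is shown because Chpf changed most and its window holds a pair of matches. The stretch is chr1:75479475-75479587 of GRCm38.p6, written 5′ to 3′ on the minus strand, and lies before the RefSeq transcript start, with the matches 33 and 78 bases before it. Beside it stands the 1 other member window with a match, that of Hs3st3a1 (chr11:64435219-64435286, plus strand, 75 bases before the start), whose own value did not pass the test. For Chpf, the distances are counted from the RefSeq start, which lies upstream of the GENCODE gene start at 75479307. Capitals mark the palindrome TGACGTCA, the cAMP response element.
Chpf: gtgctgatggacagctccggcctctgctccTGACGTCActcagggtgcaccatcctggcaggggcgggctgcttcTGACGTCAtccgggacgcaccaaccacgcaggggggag
Hs3st3a1: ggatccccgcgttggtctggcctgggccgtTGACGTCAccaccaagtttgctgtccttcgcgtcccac
RefSeq windows from 250 bases before to 50 after the start were at hand for 34 of the 42 members (43 windows). TGACGTCA was in 2 of these 43 windows and in 1.79% of 32851 windows of all genes, and 13 windows of all genes (0.04%) held it at least 2 times, that of Chpf among them. The shorter TGACGT, searched on both strands and so counting each TGACGTCA as well, was in 6 member windows (Chpf, Chsy1, Dse, Hs3st3a1, Hs6st2 and Papss1) and in 7.51% of all. GGGCGG, the core of GC boxes, was in 27 member windows and in 35.7% of all, and TATAAA in 2 and in 13.6%. CCAAT was in 20 (37.4% of all), CACGTG in 5 (7.15%) and TGANTCA in 1 (7.81%), each on both strands. The motifs were chosen after the windows and values had been seen, and a match describes letters only.

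Among the 7 genes that sulfate chondroitin, Ust rose and the others were called neither way. That is 14.3% called higher and 0 lower, where 7.75% of all tested genes were called higher and 5.92% lower. Ust (ENSMUSG00000047712, GRCm38 chr10:8204756-8518825, minus strand) is the uronyl 2-O-sulfotransferase of chondroitin and dermatan sulfate. It was at 254, 279, 309 and 347 normalised counts in the naive libraries and at 543, 471, 520 and 514 in the DMM libraries. The DMM libraries were close to each other and all above the naive range. The change was 1.72-fold (log2 fold change 0.79, SE 0.13, DESeq2 adjusted p = 2.15e-07), from 297 ± 40 to 512 ± 30.2 (SD, n = 4).

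Chst11, a chondroitin 4-O-sulfotransferase, was at 962 ± 128 normalised counts in naive libraries and 1379 ± 232 in DMM (SD, n = 4, log2 fold change 0.52, DESeq2 adjusted p = 0.00483), without overlap and under 1.5-fold. It was called when naive replicate 3 or DMM replicate 1 was left out (log2 fold change 0.59 and 0.60). Its paralogue Chst12 had a log2 fold change of -0.21 (95% interval -0.49 to 0.07) and Chst13 one of 0.05 (-0.56 to 0.66). The 6-O-sulfotransferase Chst3 was at 871, 853, 957 and 666 normalised counts in naive libraries and at 1148, 1697, 760 and 961 in DMM libraries, where DMM replicate 2 was highest and DMM replicate 3 lay inside the naive range. Its log2 fold change of 0.45 did not pass (DESeq2 adjusted p = 0.134), whereas it did without DMM replicate 3 (log2 fold change 0.60, DESeq2 adjusted p = 0.0188) and shrank to 0.19 without DMM replicate 2 (DESeq2 adjusted p = 0.51). Chst7, its low paralogue, had a log2 fold change of 0.00 (95% interval -0.66 to 0.66). Chst15, which adds a further sulfate to already 4-sulfated units, had one of -0.02 (-0.27 to 0.23), with 17.4% of its words shared, mainly with an antisense gene.

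The dermatan sulfate genes all had estimates above 0. Epimerases turn glucuronic acid of a chondroitin chain into iduronic acid, which makes it dermatan sulfate. Dsel (ENSMUSG00000038702, GRCm38 chr1:111858702-111864918, minus strand), 1 of the epimerases, was at 141, 166, 196 and 229 normalised counts in the naive libraries and at 339, 302, 446 and 293 in the DMM libraries. DMM replicate 3 was highest, and the groups did not overlap. The change was 1.89-fold (log2 fold change 0.92, SE 0.20, DESeq2 adjusted p = 8.19e-05).

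Dse, the more abundant epimerase, was at 575 ± 41.9 normalised counts in naive libraries and 823 ± 157 in DMM (SD, n = 4, log2 fold change 0.52, DESeq2 adjusted p = 0.00503), also without overlap and under 1.5-fold. It was called when DMM replicate 4 was left out (log2 fold change 0.61). Chst14, the dermatan 4-O-sulfotransferase, had a log2 fold change of 0.44 (95% interval 0.03 to 0.85) and did not pass (DESeq2 adjusted p = 0.121). The summed level of the 3 genes was 193 ± 15.5 normalised counts per kilobase in naive and 288 ± 53.2 in DMM (SD, n = 4), a ratio of 1.49 given without a test.

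**Figure D3:**
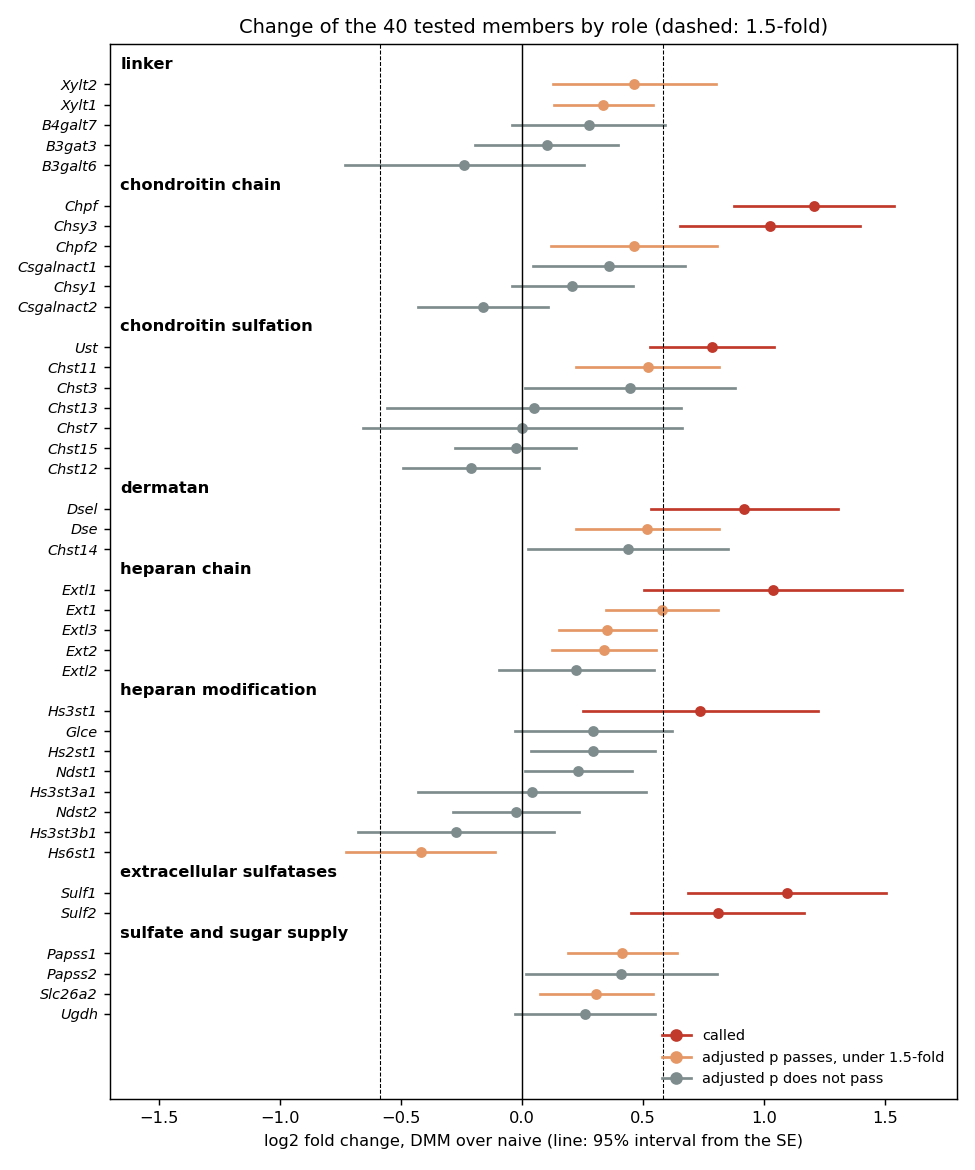
Log2 fold change (DMM over naive) of the 40 tested members grouped by role, where each line is the 95% interval from the standard error, dashed lines mark 1.5-fold, red marks the 8 called genes, orange an adjusted p at most 0.05 under 1.5-fold, and grey the rest. Chpf lies farthest right at 1.21, both sulfatases are red, and Hs6st1 is the 1 orange gene left of 0.

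In the heparan chain group, every DMM library was above every naive library in all 5 genes, a pattern seen in 11.9% of tested genes. Of the 5, 4 passed the adjusted p in the higher direction, where 11.4% of all tested genes did. Ext1 and Ext2 form the polymerase that alternates glucuronic acid and N-acetylglucosamine. Ext1 was at 537, 540, 521 and 656 normalised counts in naive libraries and at 885, 752, 884 and 847 in DMM libraries, with naive replicate 4 apart from the other naive libraries. Its change of 1.495-fold lay just under the threshold (log2 fold change 0.58, SE 0.12, DESeq2 adjusted p = 2.92e-05). It was called by edgeR and limma-voom (log2 fold change 0.60 in both) and when naive replicate 4 or DMM replicate 2 was left out (0.66 and 0.63). Ext2 was at 511 ± 37.4 and 647 ± 46.6 normalised counts (SD, n = 4, log2 fold change 0.34, DESeq2 adjusted p = 0.0126).

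Extl1 (ENSMUSG00000028838, GRCm38 chr4:134356372-134383850, minus strand), a low-level N-acetylglucosaminyltransferase of the same family, was at 32.5, 57.2, 31.04 and 48.8 normalised counts in the naive libraries and at 91.2, 78.5, 67.5 and 107 in the DMM libraries. The naive libraries spread widely, and the lowest DMM library was above them. The change was 2.05-fold (log2 fold change 1.04, SE 0.27, DESeq2 adjusted p = 0.00162). Extl3, which starts the heparan chain on the linker, was at 567 ± 46.8 and 724 ± 27.5 (SD, n = 4, log2 fold change 0.35, DESeq2 adjusted p = 0.00508). Extl2, a transferase that acts on the linker, had a log2 fold change of 0.23 (95% interval -0.10 to 0.55).

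The heparan modification group was the most mixed. Ndst enzymes replace acetyl groups by sulfate, Glce epimerises, and Hs2st1, the Hs6st and the Hs3st enzymes then add sulfate at the positions in their names. Hs3st1 (ENSMUSG00000051022, GRCm38 chr5:39613935-39755475, minus strand), which makes the antithrombin-binding site of heparin, was at 35.2, 45.2, 37.5 and 59.0 normalised counts in the naive libraries and at 65.5, 82.8, 65.9 and 79.4 in the DMM libraries. Naive replicate 4 came close to the 2 lowest DMM libraries. The change was 1.67-fold (log2 fold change 0.74, SE 0.25, DESeq2 adjusted p = 0.0178). The call was lost in 4 of 8 fits that left out 1 library, with DESeq2 adjusted p = 0.106 without naive replicate 1, 0.0858 without naive replicate 3, 0.0774 without DMM replicate 2 and 0.0661 without DMM replicate 4.

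Hs6st1, a heparan 6-O-sulfotransferase, was the 1 member that passed the adjusted p in the lower direction. It was at 896, 1028, 748 and 627 normalised counts in the naive libraries and at 606, 649, 650 and 563 in the DMM libraries. Naive replicate 4 lay inside the DMM range and naive replicate 2 was highest. Its log2 fold change was -0.42 (SE 0.16, DESeq2 adjusted p = 0.0383), under 1.5-fold, and edgeR gave an adjusted p of 0.064. The adjusted p stayed at most 0.05 in 2 of 8 fits that left out 1 library. Of its words, 8.75% are shared, mainly with an antisense gene.

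None of the other modification genes passed. Ndst1 had a log2 fold change of 0.23 (95% interval 0.01 to 0.46), Ndst2 -0.02 (-0.28 to 0.24), Glce 0.30 (-0.03 to 0.62) and Hs2st1 0.29 (0.04 to 0.55). Hs3st3a1 had one of 0.04 (-0.43 to 0.51) and its near copy Hs3st3b1 one of -0.27 (-0.68 to 0.13), and both are uncertain because they share 44.5% and 9.81% of their words with other genes, each other included. Ndst3 was between 0 and 18.1 normalised counts and Hs6st2 between 1.07 and 6.59 over the 8 libraries. The summed level of the 10 genes was 629 ± 57.4 normalised counts per kilobase in naive and 635 ± 31.4 in DMM (SD, n = 4), a ratio of 1.01 given without a test.

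The extracellular sulfatases Sulf1 and Sulf2 are secreted enzymes that remove 6-O-sulfate from finished heparan sulfate, and both rose. Sulf1 (ENSMUSG00000016918, GRCm38 chr1:12692277-12861192, plus strand) was at 439, 520, 697 and 880 normalised counts in the naive libraries and at 1206, 1150, 1644 and 1416 in the DMM libraries. The naive libraries spread widely, and all of them lay under the DMM range. The change was 2.14-fold (log2 fold change 1.10, SE 0.21, DESeq2 adjusted p = 7.22e-06).

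Sulf2 (ENSMUSG00000006800, GRCm38 chr2:166073089-166155663, minus strand) was at 621, 701, 737 and 950 normalised counts in the naive libraries and at 1392, 1119, 1697 and 1060.5 in the DMM libraries. The gap was narrow between naive replicate 4 and DMM replicate 4. The change was 1.752-fold (log2 fold change 0.81, SE 0.18, DESeq2 adjusted p = 1.79e-04). Both sulfatases were called in all 8 fits that left out 1 library. Their summed level was 278 ± 65.0 normalised counts per kilobase in naive and 529 ± 94.2 in DMM (SD, n = 4), a ratio of 1.91 given without a test and the highest of the 8 roles.

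The supply genes feed all chains. Papss1 and Papss2 make PAPS, the sulfate donor, Slc26a2 carries sulfate into the cell, and Ugdh makes the glucuronic acid donor. Papss1 was at 281, 326, 347 and 331 normalised counts in naive libraries and at 425, 413, 432 and 441 in DMM libraries, where the DMM libraries were tightly grouped above the naive range (log2 fold change 0.42, SE 0.12, DESeq2 adjusted p = 0.00317). Slc26a2 was at 550 ± 21.9 and 681 ± 82.4 (SD, n = 4, log2 fold change 0.31, DESeq2 adjusted p = 0.0463), also without overlap. Papss2 had a log2 fold change of 0.41 (95% interval 0.02 to 0.80, DESeq2 adjusted p = 0.13) and Ugdh one of 0.26 (-0.03 to 0.55), and neither passed. Of the 4 genes, 0 were called, beside 7.75% higher and 5.92% lower of all tested genes.

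The 10 members that were higher by the adjusted p but under 1.5-fold differed in how firmly they did so. In the 8 fits that left out 1 library, the adjusted p stayed at most 0.05 in all 8 for Ext1, Chst11, Dse, Extl3 and Papss1. It did so in 6 for Xylt1, 5 for Ext2, 3 for Chpf2, 2 for Xylt2 and 1 for Slc26a2. The called members other than Hs3st1 (Chpf, Chsy3, Ust, Dsel, Extl1, Sulf1 and Sulf2) were called in all 8 fits.

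To ask whether enzymes with the same task changed places, the share of 1 gene in the length-scaled level of its paralogues was compared in 9 sets by a two-sided exact permutation test over the 70 assignments of the 8 libraries, for which the smallest p is 0.0286. Chst11 made up 36.3%, 33.7%, 38.0% and 35.4% of the sum of Chst11, Chst12 and Chst13 in the naive libraries and 45.8%, 44.3%, 45.6% and 54.5% in the DMM libraries. The groups did not overlap, and DMM replicate 4 was highest. The means were 35.9% ± 1.81 and 47.5% ± 4.67 (SD, n = 4, exact p = 0.0286, adjusted over the 9 sets 0.0857). A set apart in all libraries could pass the adjustment only if at least 6 of the 9 sets were at the smallest p, so the adjusted value says little about any 1 set. Csgalnact1 made up 11.6% ± 1.32 of the sum with Csgalnact2 in naive and 15.8% ± 1.29 in DMM, and Ndst1 68.0% ± 1.46 and 72.1% ± 0.880 of the Ndst sum, both without overlap of the groups (exact p = 0.0286 each, adjusted 0.0857). These shares do not depend on the library scaling.

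In the other sets the groups overlapped. Dse made up 80.6% ± 2.72 of the sum with Dsel in naive and 75.8% ± 1.08 in DMM (SD, n = 4, exact p = 0.0571, adjusted 0.129). Sulf1 made up 40.3% ± 3.58 and 45.9% ± 4.55 of the sum with Sulf2 (exact p = 0.114, adjusted 0.206). Chst3 made up 92.3% and 93.9% of the sum with Chst7, Xylt1 76.9% and 75.2% of the sum with Xylt2, Papss1 47.1% and 47.2% of the sum with Papss2, and Hs6st1 99.7% and 99.6% of the sum with Hs6st2. Exact p values of these last 4 sets were 0.457, 0.686, 1 and 0.771.

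**Figure D4:**
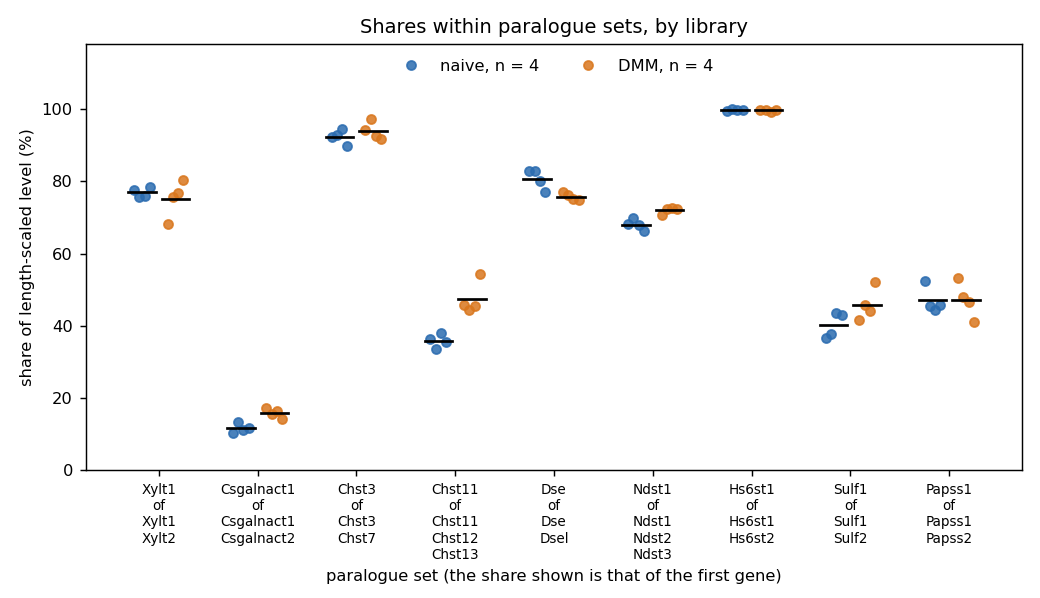
Share (%) of the first gene of each of the 9 paralogue sets in the summed normalised counts per kilobase of the set, with 1 point per naive (blue) or DMM (orange) library and a black bar at the group mean. The groups are apart for Chst11, Csgalnact1 and Ndst1 and overlap in the other sets.

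Genes next to the set in the same pathway were counted in the same way. Of 27 other synthesis genes (donor transport, donor synthesis and further sulfotransferases), 24 were tested, 2 were called higher (8.33%, beside 7.75% of all tested genes) and 1 lower (beside 5.92%), shares near the background. Chst1, a keratan sulfate 6-O-sulfotransferase, was at 91.5, 86.5, 239 and 259 normalised counts in naive libraries and at 331, 475, 493 and 514 in DMM libraries, where the naive libraries fell into a low and a high pair (log2 fold change 1.42, SE 0.32, DESeq2 adjusted p = 2.01e-04). Bpnt1, which clears a by-product of sulfation, rose 1.51-fold (log2 fold change 0.59, DESeq2 adjusted p = 0.00781), and the nucleotide-sugar transporter gene Slc35d2 fell (log2 fold change -0.68, DESeq2 adjusted p = 0.0181). Of 18 breakdown genes, DESeq2 called 0 in either direction (beside 7.75% higher and 5.92% lower of all tested genes). So did edgeR, for which the share over all genes was not taken. By DESeq2 at an unadjusted p under 0.05, 6 were higher and 3 lower, where 15.9% and 17% of all tested genes were. With the DESeq2 adjusted p alone, 3 were higher and 2 lower, where 11.4% and 11.2% of all tested genes were.

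The core proteins carry the chains. Of 22 listed, 21 were tested, and 5 of these did not pass the adjusted p. Among the 40 tested members 20% were called higher, with a median log2 fold change of 0.34, and that of the breakdown genes was 0.14. Of the core proteins, 10 were called higher (47.6%, beside 7.75% of all tested genes) and 1 lower (beside 5.92%), with a median of 0.55. The smallest adjusted p among them belonged to the heparan sulfate carriers Sdc1 (2.004-fold, DESeq2 adjusted p = 2.42e-11) and Sdc3 (1.61-fold, DESeq2 adjusted p = 5.75e-11) and to aggrecan, Acan (2.13-fold, DESeq2 adjusted p = 7.75e-09). The 1 core protein called lower was Srgn, the proteoglycan of blood cell granules (log2 fold change -0.61, DESeq2 adjusted p = 0.00197), and neutrophil markers were lower in the same libraries, whose part in it was not tested. Counts of lists are descriptions, the lists were chosen with earlier results of these data known, and they were not tested against each other.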

How the data were processed

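RNA was measured in 8 libraries of mouse knee cartilage (4 naive, 4 DMM). The authors trimmed reads with Trimmomatic, pseudo-aligned them with Kallisto and summed transcripts to genes with tximport, and the deposited table holds the resulting estimated counts, of which 39.2% are not whole. The methods name GRCm38, the labels a human build, and the library kit differs between labels and methods, which was not resolved. A read that fits several transcripts is divided between them.

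Here the estimated counts were rounded and tested over all genes by the Wald test of DESeq2 1.42.0 (R 4.3.3), with size factors by the median of ratios, default filters and no covariate, as the methods of the study name it. Alternatives used edgeR version 4.0.16 (quasi-likelihood), limma version 3.58.1 (voom), other scalings, filters and thresholds, a replicate block and leaving out each library. Scripts were tested on simulated data. Symbols (48855 identifiers), lengths, shared 31-base words and coordinates came from GENCODE vM21, and promoter windows from RefSeq (GRCm38.p6). Intervals of 95% are the estimate and its SE on the normal scale. The members and lists were chosen with earlier results of these data known. Every member is named, those called with each library's value, and of each other list up to 3 called genes with the smallest adjusted p; Srgn was named after its value was seen. Replicates are separate mice.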

Additional observations from a re-analysis of the deposited data

Results flagged for a closer look

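Among 102 groups of 4 values (member levels and paralogue shares in each group), 6 held 1 library farther from the others than Dixon's 95% critical value allows, where chance alone gives about 1 in 20, or 5.1. B4galt7 was at 117 normalised counts in naive replicate 1 and near 154 in the other naive libraries. Chsy3 was at 149 in naive replicate 4 and between 113 and 114.5 in the others. Ext1 was at 656 in naive replicate 4 and between 521 and 540 in the others. Hs6st2 was at 6.59 in DMM replicate 3 and at most 1.81 in the others. The share of Chst11 in its paralogue sum was 54.5% in DMM replicate 4 and between 44.3% and 45.8% in the others. The share of Papss1 in its sum with Papss2 was 52.5% in naive replicate 1 and between 44.4% and 45.8% in the others.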

How the results depend on the processing

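The 8 members called higher became 15 with total count scaling, which moves the median log2 fold change of all genes from -0.01 to 0.14, 1 against a 1.5-fold null and 18 without a fold threshold, where 1 member was also lower. Members called higher were 9 by edgeR, by limma-voom, with TMM factors or without the most abundant identifier in the total, and 7 to 9 without 1 library. The 2 other synthesis genes called higher became 0 against the null and 4 without a threshold, and the 1 lower became 0 with total count scaling or against the null and 2 without a threshold. Without 1 library they were 1 to 3 higher (1 without naive replicate 2 or 3 or DMM replicate 3 or 4) and 0 to 2 lower (0 without naive replicate 2 or 3 or DMM replicate 1, 2 without DMM replicate 4). The 0 breakdown genes became 3 higher with total count scaling, 3 higher and 2 lower without a threshold, and 0 to 1 higher without 1 library (1 without naive replicate 4 or DMM replicate 4). The 10 core proteins called higher became 1 against the null, and the 1 lower became 0 with TMM factors, with either total count scaling or against the null, and 0 to 1 without 1 library (0 without replicate 1 or 2 of either group). Same-numbered libraries did not deviate together (correlations 0.05, 0.06, -0.12 and 0.12), so the numbers were not used as pairs. With the replicate block 7 members were higher (Hs3st1 had a DESeq2 adjusted p of 0.063), and 1 other synthesis gene was higher and 0 lower.

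Estimates near 0 changed sign: Chst7 with limma-voom (-0.000988), with the replicate block (-0.0122) and without 1 library (-0.14 to 0.11), Chst15 with TMM factors (0.0016), total count scaling (0.13), the total without the top identifier (0.0051) and without 1 library (-0.12 to 0.0403), and Ndst2 in the same settings (0.00403, 0.13, 0.0051, and -0.10 to 0.0407). Without 1 library Chst13 ran from -0.16 to 0.18, Hs3st3a1 from -0.17 to 0.14 and Hs6st2 from -0.76 to 0.55, and Hs6st2 was -0.0823 with the replicate block. What causes these shifts was not tested. Depth limits Ndst3 and Hs6st2, for which no change can be read at these counts.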
